A study of Caenorhabditis elegans with 10 samples.

Results

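The endoplasmic reticulum (ER) stress response genes described here are hsp-3, hsp-4, xbp-1, ire-1, pek-1, atf-6, pdi-1, pdi-2, crt-1 and enpl-1. They were chosen by gene symbol, with earlier results of these data known. All 10 were found in both tables, which list 19177 genes at 8 h and 21915 at 24 h (22554 genes in either). RNA was sequenced from whole worms of 2 strains of the nematode Caenorhabditis elegans. GMC101 carries a transgene for the human amyloid-β peptide Aβ1-42 under the promoter of unc-54, the body wall muscle myosin heavy chain gene, together with GFP under the promoter of the intestinal metallothionein gene mtl-2. CL2122 carries the empty unc-54 vector with the same GFP marker, and serves as the control. Both strains were shifted to a warmer temperature, which induces Aβ in GMC101, so the controls received the temperature shift as well. The labels list 2 samples per strain after 8 h of induction and 3 per strain after 24 h, but each table holds 1 value per gene and strain. The strain differences therefore have no replicate check, and all intervals below are 95% counting intervals that leave out the variation between worm populations.

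The ER is where secreted and membrane proteins fold. When unfolded protein accumulates in its lumen, the unfolded protein response is started by 3 sensors in the ER membrane, IRE-1, PEK-1 (PERK in mammals) and ATF-6. IRE-1 is an endoribonuclease that removes an intron from the mRNA of xbp-1, and the transcription factor made from the spliced mRNA raises the transcription of chaperone genes. PEK-1 is a kinase that phosphorylates eIF2α and lowers translation, and ATF-6 is a membrane-bound transcription factor. The other members act in the lumen. HSP-3 and HSP-4 are the worm's BiP chaperones of the HSP70 family, CRT-1 is the calcium-binding chaperone calreticulin, ENPL-1 is the HSP90 chaperone of the ER (GRP94 in mammals), and PDI-1 and PDI-2 are protein disulfide isomerases. In the worm, hsp-4 is a gene whose promoter is widely used as a reporter of ER stress, whereas hsp-3 is expressed strongly without stress.

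At 8 h, 20533034 reads of GMC101 and 22520669 of CL2122 fell on genes, and at 24 h 25283085 and 24583097. The stage label is L1, whereas the methods describe worms shifted as young adults, and the yolk protein gene vit-2, which adult hermaphrodites transcribe, had 310947 to 433486 reads in each column. The transcript of the transgene was not analysed here. The endogenous unc-54 gene, whose promoter drives it, was lower in GMC101 at 8 h (60116 GMC101 reads and 95186 CL2122 reads, log2 fold change -0.56) and higher at 24 h (51760 and 25461 reads, log2 fold change 1.17). Reads of the transgene cannot be told apart from endogenous unc-54 reads where they share sequence.

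At 8 h and at 24 h, none of the 10 members differed by 2-fold between the strains. At 8 h the members had a median log2 fold change (GMC101 over CL2122) of 0.08, with hsp-4 (0.47) and crt-1 (0.37) the highest. The paper lists hsp-4 and hsp-3 as higher in GMC101 past 2-fold after 8 h, whereas the log2 fold changes here were 0.47 and 0.08. The reason for this difference was not tested. At 24 h the median was -0.32. The lumenal genes hsp-3, pdi-2, crt-1 and enpl-1 and the sensor genes pek-1 and atf-6 were then lower in GMC101 beyond counting error. The genes hsp-4 and ire-1 were higher, and the counting intervals of xbp-1 and pdi-1 held 0. Over all tested genes (at least 10 reads in 1 strain), 8.16% at 8 h and 23.8% at 24 h were past 2-fold in either direction. Many of these genes have few reads, and for genes averaging 1000 or more normalized counts over the strains the shares were 0.981% and 6.04%.

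**Figure D1:**
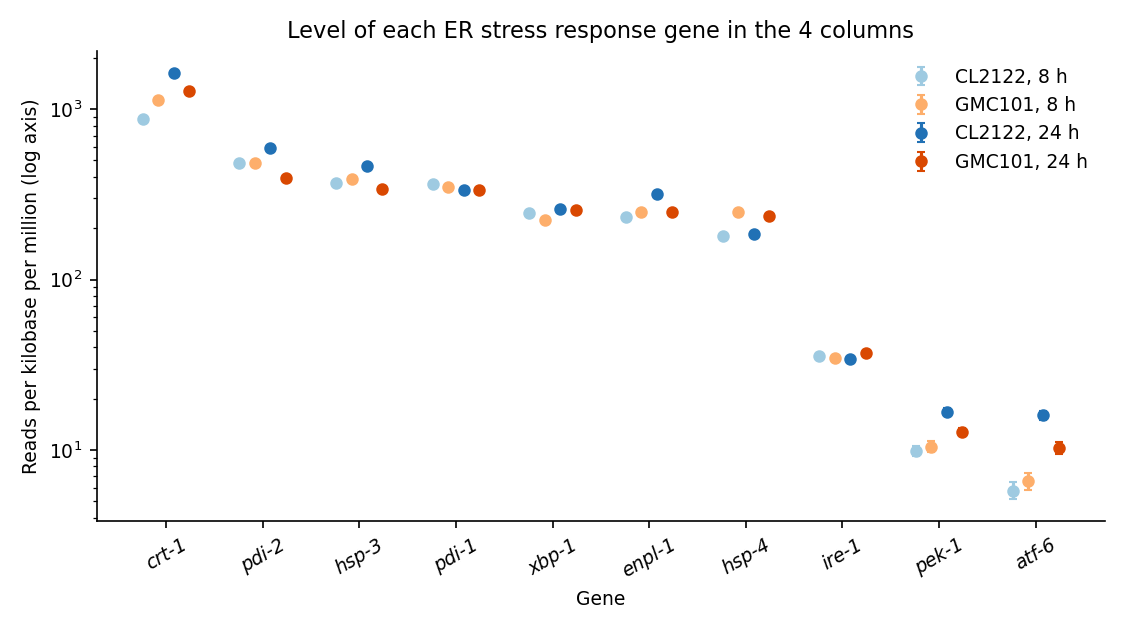
Level of each member in the 4 columns, as reads scaled by gene length and library size (RPKM) on a log axis, with 95% exact Poisson counting intervals (smaller than most points). The lumenal genes and xbp-1 lie far above the sensors ire-1, pek-1 and atf-6 in every column.

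The members covered a wide range of levels, compared here as RPKM, reads scaled by gene length and library size. The calreticulin gene crt-1 (WBGene00000802, chromosome V from 6098993 to 6100553) was the highest in every column, with 1130 RPKM in GMC101 and 873.8 in CL2122 at 8 h, and 1275 and 1638 at 24 h. It ranked 62 among all genes in CL2122 at 24 h. The sensor atf-6 was the lowest in every column, at 5.77 to 15.96 RPKM. Between these ends, the order of some neighbors was within their counting intervals. In CL2122 at 8 h, hsp-3 (367.3) and pdi-1 (365.9) could not be told apart, and in GMC101 at 8 h the same held for hsp-4 (249.7) and enpl-1 (248.6). In GMC101 at 24 h, hsp-3 overlapped pdi-1 and xbp-1 overlapped enpl-1. The intervals of pek-1 and atf-6 overlapped in CL2122 at 24 h, whereas pek-1 lay above atf-6 in the other columns. Together, the 10 members took 0.543% of the GMC101 reads and 0.48% of the CL2122 reads at 8 h, and 0.591% and 0.812% at 24 h.

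The BiP gene hsp-4 (WBGene00002008, chromosome II from 7350121 to 7352636) was higher in GMC101 at both times. It had 10560 GMC101 reads and 8163 CL2122 reads at 8 h, and 13577 and 11614 at 24 h. The log2 fold change was 0.47 at 8 h (interval 0.43 to 0.51), which is 1.39-fold, and 0.38 at 24 h (0.34 to 0.41), which is 1.30-fold. It was the highest of the 10 members at both times. Of all tested genes, 7.81% at 8 h and 16.8% at 24 h were higher in GMC101 past 1.5-fold, a size that hsp-4 did not reach. Among genes averaging 1000 or more normalized counts, as hsp-4 did, these shares were 0.747% and 10.2%. In CL2122 the level of hsp-4 was 179.8 RPKM at 8 h and 185.5 at 24 h, a log2 difference of 0.05 with TMM scaling and 0.38 with total-count scaling.

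The other BiP gene hsp-3 (WBGene00002007, chromosome X from 6089033 to 6092124) was lower in GMC101 at 24 h but not at 8 h. At 8 h it had 19927 GMC101 reads and 20169 CL2122 reads, a log2 fold change of 0.08 (0.05 to 0.11). At 24 h it had 23681 and 35199 reads, a log2 fold change of -0.42 (-0.45 to -0.40). The ratio of the paralogs within a library does not depend on how libraries are scaled. For every 100 reads of hsp-3 there were 53.0 reads of hsp-4 in GMC101 (51.8 to 54.3) and 40.5 in CL2122 (39.4 to 41.5) at 8 h. At 24 h the corresponding values were 57.3 (56.1 to 58.6) and 33.0 (32.3 to 33.7). The hsp-4 share was thus 1.31-fold higher in GMC101 at 8 h and 1.74-fold higher at 24 h. The genes code for similar proteins, and how reads that fit both were counted is not stated.

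**Figure D2:**
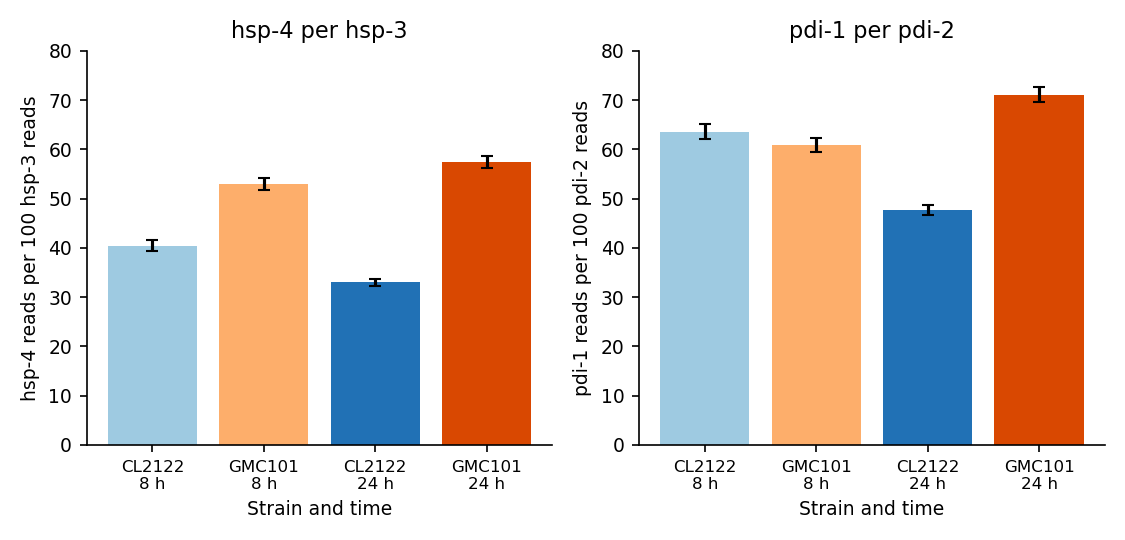
Reads of hsp-4 per 100 reads of hsp-3 (left) and of pdi-1 per 100 reads of pdi-2 (right) in each strain and time, with 95% exact binomial counting intervals. The hsp-4 bar is higher in GMC101 at both times. The pdi-1 bar is slightly lower in GMC101 at 8 h and higher at 24 h.

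The disulfide isomerase genes separated in a similar way at 24 h. For pdi-1 (WBGene00003962, chromosome III from 3699740 to 3701476), there were 10657 GMC101 reads and 11940 CL2122 reads at 8 h, and 13815 and 15045 at 24 h. Its log2 fold changes were -0.06 (-0.10 to -0.03) and 0.03 (-0.01 to 0.06). For pdi-2 (WBGene00003963, chromosome X from 4524155 to 4526536), GMC101 and CL2122 gave 17507 and 18771 reads at 8 h, then 19436 and 31557. Its strains did not differ beyond counting error at 8 h (log2 fold change -0.001, interval -0.03 to 0.03), and it was lower in GMC101 at 24 h (-0.55, interval -0.57 to -0.52). In GMC101 there were 60.9 pdi-1 reads for every 100 of pdi-2 at 8 h and 71.1 at 24 h, against 63.6 and 47.7 in CL2122. The difference in this ratio at 24 h, 1.49-fold, came with the higher pdi-2 count in CL2122.

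The chaperone genes crt-1 and enpl-1 were higher in GMC101 at 8 h and lower at 24 h. For crt-1 there were 30471 GMC101 reads and 25289 CL2122 reads at 8 h, a log2 fold change of 0.37 (0.34 to 0.39), and 46658 and 65376 at 24 h, a log2 fold change of -0.34 (-0.35 to -0.32). For enpl-1 (WBGene00011480, chromosome IV from 11119298 to 11123155), GMC101 and CL2122 gave 12801 and 12860 reads at 8 h, then 17531 and 24107. Its log2 fold changes were 0.09 (0.06 to 0.13) and -0.31 (-0.34 to -0.28). The exons of crt-1 share 92 bases with smut-1 on the opposite strand, and those of enpl-1 share 23 with spo-11, in the WBcel235 annotation. The library kit is not stated to keep strand, so a small part of these counts is uncertain. Summed over the 6 lumenal genes, the level was 2852 RPKM in GMC101 and 2502 in CL2122 at 8 h, and 2833 and 3527 at 24 h.

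**Figure D3:**
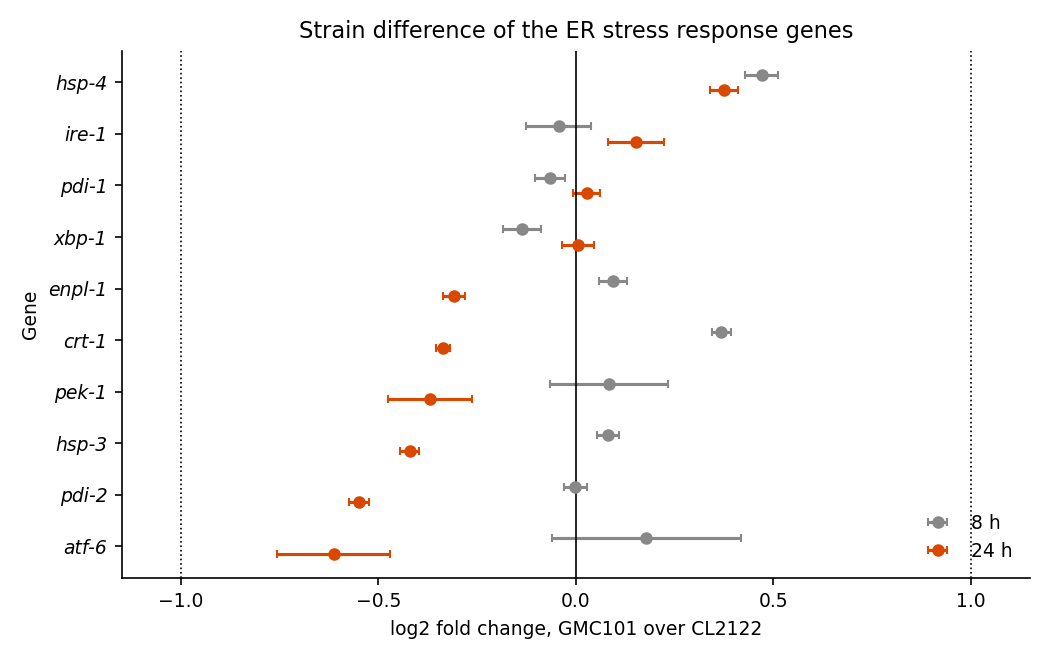
Log2 fold change of GMC101 over CL2122 for each member at 8 h (grey) and 24 h (orange), with 95% counting intervals and dotted lines at 2-fold. No member reaches 2-fold, and 6 intervals lie below 0 at 24 h.

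Of the sensors, ire-1 (WBGene00002147, chromosome II from 8112262 to 8124910) had 2248 GMC101 reads and 2483 CL2122 reads at 8 h, and 3258 and 3253 at 24 h. Its log2 fold change was -0.04 at 8 h (-0.13 to 0.04) and 0.15 at 24 h (0.08 to 0.22). The kinase gene pek-1 (WBGene00003970, chromosome X from 11410181 to 11414887) had 740 and 748 reads at 8 h, and 1220 and 1749 at 24 h. Its log2 fold change was 0.08 (-0.06 to 0.23) and then -0.37 (-0.48 to -0.26). The gene atf-6 (WBGene00000222, chromosome X from 12480948 to 12484904) had 300 and 284 reads at 8 h, and 638 and 1084 at 24 h. With few reads at 8 h, its difference was within counting error (0.18, interval -0.06 to 0.42). At 24 h it was the lowest of the members, at -0.61 (-0.76 to -0.47), and the only one lower past 1.5-fold, as were 23.9% of all tested genes. The transcription factor gene xbp-1 (WBGene00006959, chromosome III from 4193809 to 4195358) had 6212 and 7315 reads at 8 h, and 9624 and 10639 at 24 h. It was slightly lower in GMC101 at 8 h (-0.14, interval -0.19 to -0.09) and did not differ beyond counting error at 24 h (0.006, interval -0.03 to 0.05). A gene's total does not separate spliced from unspliced xbp-1 mRNA, so the activity of IRE-1 was not measured.

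Counting intervals above 0 were found for 4 members at 8 h and 2 at 24 h, and intervals below 0 for 2 and 6. Of all tested genes, 18.2% at 8 h and 33.8% at 24 h had intervals above 0, and 18.6% and 31.9% had intervals below 0. Genes averaging 1000 or more normalized counts included 8 members at 8 h and 9 at 24 h. Of such genes, 25.3% at 8 h and 54.5% at 24 h had intervals above 0, and 23.3% and 29.4% below 0. The median over all tested genes was 0.002 at 8 h and -0.01 at 24 h, and that of genes averaging 1000 or more normalized counts was 0.12 at 24 h. The recovered reads were also put to the exact test of edgeR, with an assumed coefficient of variation of 0.2 and Benjamini-Hochberg adjustment. No member passed an adjusted p of 0.05 and 2-fold at either time. At 8 h the test called 45 genes higher (0.235%) and 111 lower (0.579%), and at 24 h it called 881 higher (4.02%) and 1034 lower (4.72%). These counts equal the numbers of genes that the paper reports as up- and down-regulated at each time. Such a test speaks of these libraries and not of the conditions. Scaling by total reads in place of TMM lowered the log2 fold change of each member at 24 h by 0.19, the median over all tested genes to -0.20 and that of the members to -0.51. The values of ire-1 (-0.04), xbp-1 (-0.19) and pdi-1 (-0.16) were then below 0, and hsp-4 stayed above (0.18).

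The levels at 24 h and 8 h were also compared within each strain. The tables come from different times, and the name of the supplementary sheet for 8 h calls it a second batch. Time and batch therefore cannot be told apart. Values over time also depend on the scaling, and those that follow use TMM. In CL2122, atf-6 was 2.77-fold higher at 24 h than at 8 h, crt-1 1.88-fold, pek-1 1.70-fold, enpl-1 1.36-fold, hsp-3 1.27-fold and pdi-2 1.22-fold. In GMC101 the same genes were at 1.57-fold (atf-6), 1.13-fold (crt-1), 1.21-fold (pek-1), 1.01-fold (enpl-1), 0.875-fold (hsp-3) and 0.818-fold (pdi-2). The other members, hsp-4, xbp-1, ire-1 and pdi-1, lay between log2 changes of -0.13 and 0.19 in both strains. With total-count scaling they lay between 0.06 and 0.41, and pdi-1 (0.21 in CL2122, 0.07 in GMC101), ire-1 in CL2122 (0.26) and hsp-4 in GMC101 (0.06) went from below to above 0. The value of hsp-3 in GMC101 was then -0.05, and that of pdi-2 was -0.15. The median log2 change over the members was 0.31 in CL2122 and 0.05 in GMC101, beside -0.08 and -0.02 over the 14735 genes tested at both times with reads in every column. With total-count scaling these medians were 0.65 and 0.19 for the members, beside 0.26 and 0.12 for all genes. The log2 fold change of GMC101 over CL2122 was lower at 24 h than at 8 h for 7 of the 10 members, as for 43.2% of all genes. With total-count scaling this held for all 10 members and for 8841 of the 14735 genes. The largest such differences were -0.79 for atf-6 (interval -1.07 to -0.52) and -0.70 for crt-1 (-0.73 to -0.68), and that of hsp-4 was -0.10 (-0.15 to -0.04).

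**Figure D4:**
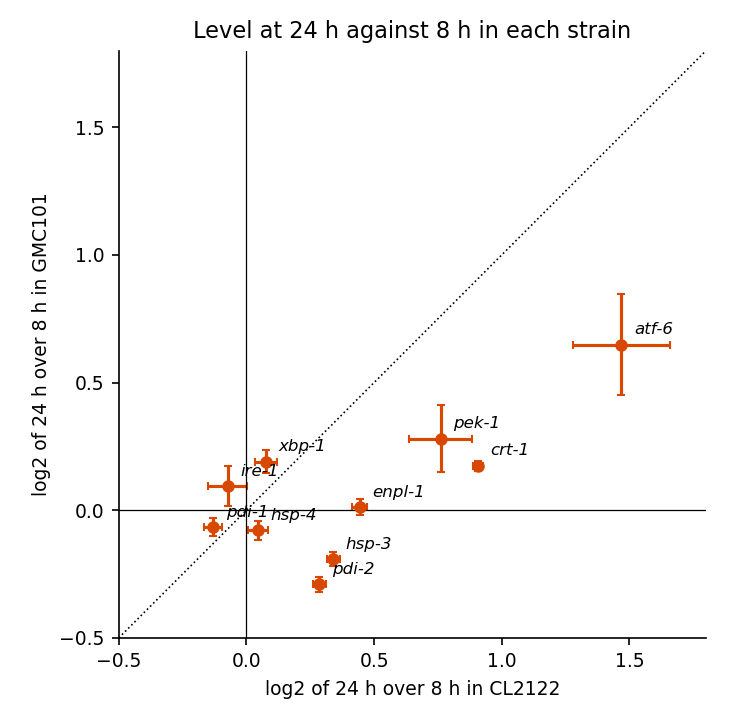
Log2 ratio of 24 h over 8 h for each member in CL2122 (horizontal axis) and GMC101 (vertical axis), with 95% counting intervals, TMM scaling and a dotted line of equal change. Of the 10 members, 7 lie below the line, with atf-6, crt-1 and pek-1 farthest to the right.

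Genes of other ER functions were compared as lists. Of 13 genes of ER folding, 11 had a log2 fold change below 0 at 24 h (median -0.21), beside 50.8% of all tested genes and 37.0% of genes averaging 1000 or more normalized counts, as all 13 did. Only C14B9.2 was lower past 2-fold (13.8% of all tested genes). It was not called by the exact test at coefficients of 0.2 and 0.4, and total-count scaling added dnj-7 (-1.01). C14B9.2, which codes for a disulfide isomerase with thioredoxin domains, had 2195 GMC101 reads and 5446 CL2122 reads, a log2 fold change of -1.16. The J-domain co-chaperone gene dnj-7 was at -0.82, and the highest was ero-1, the oxidase that recharges disulfide isomerases, at 0.21. At 8 h the list was near 0 (median 0.009, from -0.16 for C14B9.2 to 0.26 for R12E2.13).

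The 17 genes of ER-associated degradation, which draw misfolded proteins out of the ER to the proteasome, had 16 members above 0 at 24 h and a median of 0.27. Of all tested genes 49.2% were above 0, and of genes averaging 1000 or more normalized counts, as 15 of the 17 did, 63.0% were, with a median of 0.12. The highest were cdc-48.1, the segregase ATPase, at 0.48 and the ubiquitin-conjugating enzyme gene ubc-7 at 0.48, and npl-4.1, a cofactor of CDC-48, was the only one below 0, at -0.11. Of the 18 genes of ER entry and N-glycosylation, 17 were above 0 at 24 h. All 18 averaged 1000 or more normalized counts, and their median of 0.16 was near the 0.12 of such genes. With total-count scaling these medians were 0.08 (11 of 17 above 0) and -0.03 (8 of 18 above 0), so the direction of the second list depended on the scaling. At 8 h both medians were 0.02. The farthest gene was npl-4.1 at -0.82, and no gene of either list was past 2-fold at either time.

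A list named signaling partners held 7 genes linked to the unfolded protein response, not all of which need act in signaling. The choline kinase gene ckb-2 had 589 GMC101 reads and 1308 CL2122 reads at 24 h. At a log2 fold change of -1.0, ckb-2 lay at the 2-fold limit and was not past it. With total-count scaling it was past it (-1.19), and the exact test called it at a coefficient of 0.1. The highest was eif-2alpha, whose protein is the substrate of PEK-1, at 0.55. The RNA ligase gene rtcb-1, whose product joins the cut ends of xbp-1 mRNA, was at -0.13 at 8 h and 0.26 at 24 h. Of 11 tested abu genes, named in the worm as activated in blocked unfolded protein response, 10 were lower in GMC101 past 2-fold at 8 h (median -1.79, beside 5.13% of all tested genes). Their counts were low, from 3 to 130 reads in GMC101 and 20 to 367 in CL2122, and the family shares near-identical repeats, so the split of reads among its genes is uncertain. The count fell to 7 among genes averaging 50 or more normalized counts. The exact test called 10 at a coefficient of 0.1, 5 at 0.2 and 0 at 0.4. Cuticle genes were also lower, with 5 of 10 epidermis and cuticle markers lower past 2-fold at 8 h (median -1.06). Their part in the result was not tested. At 24 h only 5 abu genes had enough reads, of which 2 were lower past 2-fold (13.8% of all tested genes). This became 1 with a pseudocount of 5, and the exact test called 0 at each coefficient.

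Prolyl 4-hydroxylases modify collagen in the ER, and those made by dpy-18 and phy-2 for cuticle collagens contain PDI-2. Of 3 genes of these enzymes, phy-3 was higher in GMC101 past 2-fold at both times (1.35 and 2.07), as were 3.04% and 9.98% of all tested genes. The exact test at a coefficient of 0.2 did not call it at 8 h. The gene dpy-18 was at -0.36 and -0.84, and total-count scaling took it past 2-fold at 24 h. Chaperones outside the ER were taken for comparison. Of 12 cytosolic heat shock genes, 9 were higher in GMC101 past 2-fold at 8 h, as were 3.04% of all tested genes. The count was 5 among genes averaging 50 or more normalized counts. The HSP70 gene hsp-70 had 1868 GMC101 reads and 38 CL2122 reads (log2 fold change 5.70), and the small heat shock protein gene hsp-16.41 had 2876 and 50 (5.93). The paper lists larger log2 fold changes for both genes after 8 h, and the reason was not tested. At 24 h, 2 of the 12 were higher and 1 lower past 2-fold, near the shares of all tested genes (9.98% and 13.8%). The mitochondrial chaperone gene hsp-60 was the only one of 5 mitochondrial genes past 2-fold, at 1.25 at 24 h, as were 9.98% of all tested genes on the higher side. The difference between ER and cytosolic genes was not tested.

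**Figure D5:**
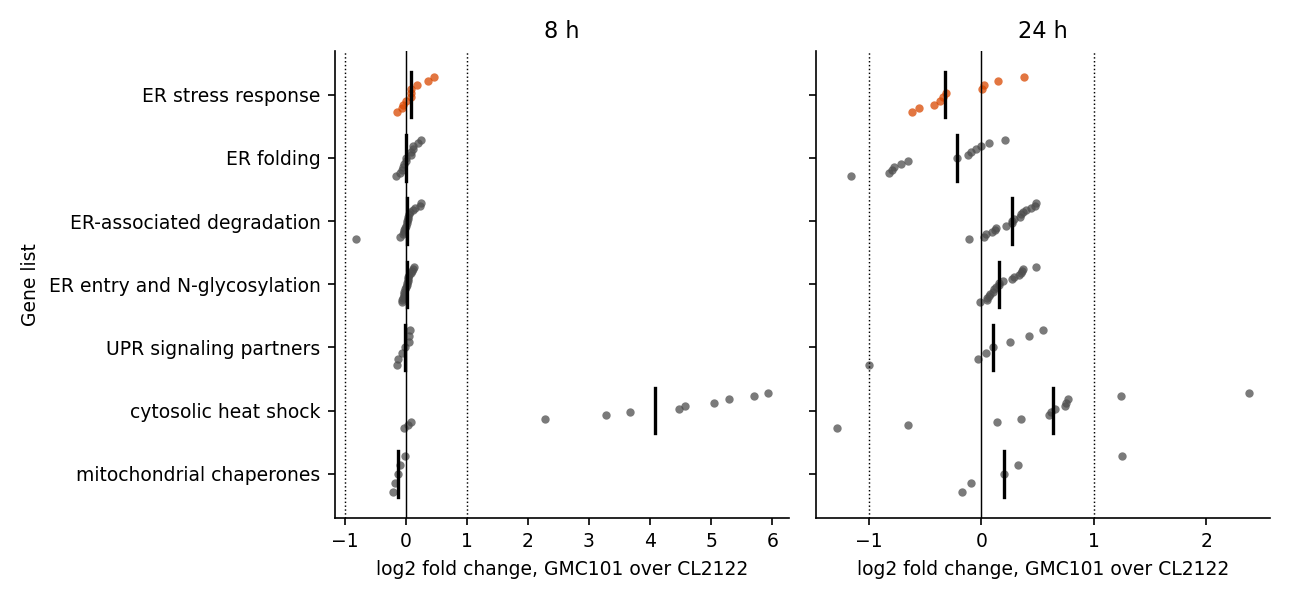
Log2 fold change of GMC101 over CL2122 for each tested gene of 7 lists at 8 h and 24 h, with a black bar at each list's median and dotted lines at 2-fold. The ER lists cluster near 0 at 8 h, where 9 cytosolic heat shock genes lie far to the right.

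Markers of other tissues differed between the strains at 24 h. Of 12 body wall muscle markers, 6 were higher in GMC101 past 2-fold (median 1.0), as were 5 of 6 yolk genes (median 3.17), 8 of 10 sperm genes (median 2.69) and 4 of 10 intestine genes (median 0.64), beside 9.98% of all tested genes. The 15 germline and oocyte genes had a median of 0.66, and the 10 neuron genes one of 0.002. Their summed share of reads was 0.474% in GMC101 and 0.266% in CL2122 for muscle, 3.94% and 1.8% for yolk, and 1.52% and 1.11% for germline and oocyte. It was lower in GMC101 for intestine (0.386% and 0.443%) and neurons (0.0747% and 0.0864%). The gene asp-1 held most of the intestine reads (61284 in GMC101 and 91690 in CL2122, log2 fold change -0.43). The intestine share thus followed this gene, while the median of the list was above 0. At 24 h, 2 sperm markers and 3 intestine markers were below 0, and none of the muscle markers was. The 10 epidermis and cuticle markers were split in direction, with 5 above 0 and 5 below (median -0.007). Of these, 4 were higher and 1 lower past 2-fold, beside 9.98% and 13.8% of all tested genes. Their summed share of reads was 0.366% in GMC101 and 0.081% in CL2122. Most of these reads lay on the collagen genes col-119 (2.32), col-140 (2.49) and col-19 (3.58), all higher in GMC101. At 8 h no gene of the muscle, intestine, germline, sperm or neuron lists was past 2-fold. All 6 yolk genes were then below 0 (median -0.62), opposite to 24 h, and 1, vit-3 (-1.02), was lower past 2-fold. In RNA of whole worms, fewer cells of a type and less RNA per cell cannot be told apart, and the part of these markers in the lower ER chaperone values at 24 h was not tested.

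The members on chromosome X were the lowest at 24 h. Those 4 genes, atf-6, pdi-2, hsp-3 and pek-1, had log2 fold changes of -0.61, -0.55, -0.42 and -0.37. The median over all 2379 tested genes of chromosome X was -0.22 at 24 h, beside 0.02 over 14517 genes of the other chromosomes. For genes averaging 1000 or more normalized counts, these medians were -0.23 (426 genes) and 0.14 (4639 genes). At 8 h the medians of all tested genes were -0.02 on X and 0.005 elsewhere. This comparison was chosen after the values were seen. Lower genes outside X were crt-1 and enpl-1 on chromosomes V and IV, C14B9.2 on chromosome III and dnj-27 (-0.77) on chromosome I. The ER folding genes dnj-7 (-0.82), T14G8.3 (-0.79), pdi-6 (-0.72) and uggt-1 (-0.65) lie on X. Also on X, trap-2 (0.13) and atf-5 (0.04) were above 0 at 24 h. The part of chromosome X in these values was not tested.

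The genes most like hsp-4 over the 4 columns were sought by the distance between log2 levels centered within each gene, over 10630 genes. The nearest were H31G24.3 (distance 0.055), Y69A2AR.21 (0.062), ave-1 (0.094), K12C11.6 (0.096) and klu-2 (0.098). With 4 values per gene such distances are a description. None of the other members was near, as ire-1 ranked 1617 and hsp-3 ranked 5037.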

How the data were processed

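The authors deposited 1 table per time, holding for each gene and strain a normalized expression signal, and also fold changes, p-values and adjusted p-values of their own comparison, which were not used. The labels name HISAT2 2.05, StringTie 1.33 and DESeq2 as the submitters' tools, and the genome build and annotation are not given in the sources used here. The signal is a read count scaled to a common library size. Dividing by each column's step returned whole reads for 100% of values (tolerance 0.1 read), with 20533034 (GMC101) and 22520669 (CL2122) reads at 8 h and 25283085 and 24583097 at 24 h. How the labeled samples were combined into 1 column is not stated.

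Log2 fold changes used TMM-normalized reads (edgeR 4.0.16, R 4.3.3) with a pseudocount of 0.5. Tested genes had at least 10 reads in 1 strain. Intervals are exact Clopper-Pearson (95%) for ratios of reads exact Poisson for levels, and a normal approximation from the reads for comparisons over time. Levels across times used TMM factors over the 4 columns and the deposited gene lengths, and hold only as far as tables normalized separately can be compared. An edgeR exact test with an assumed coefficient of variation of 0.2 was an alternative, as were the coefficients 0.1 and 0.4, scaling by total reads or by median of ratios (DESeq2 1.42.0), a pseudocount of 5, a 1.5-fold threshold and other count filters. Scripts were tested on simulated data. A quasi-likelihood test and replicate settings had been planned for columns with replicates and could not be run.

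The members and gene lists were chosen with earlier results of these data known. Some lists held more symbols than distinct genes found. ER folding held 14, ER-associated degradation 20, ER entry and N-glycosylation 21, and the signaling partners 10. The prolyl hydroxylases held 4 and cytosolic heat shock 13. Beside the members, genes named are unc-54, the 5 nearest to hsp-4, and, per pathway list and time, up to 2 with the largest difference in each direction within genes averaging 50 or more normalized counts, with examples left out for brevity. rtcb-1 and atf-5 at 24 h, vit-2, vit-3, asp-1, col-19, col-119, col-140, dnj-27, T14G8.3, pdi-6, uggt-1 and trap-2 were named outside this rule. Coordinates are those of the deposited tables, and overlaps are from the WBcel235 annotation. Promoter and protein sequences were not analysed here. Python 3.11.15, numpy 2.4.6, pandas 2.3.3, scipy 1.17.1 and matplotlib 3.10.9 were used.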

Additional observations from a re-analysis of the deposited data

Results flagged for a closer look

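For 3 members the strains differed in opposite directions at 8 h and 24 h, each beyond counting error, and the difference between the times was not tested against replicates. The log2 fold change of hsp-3 was 0.082 at 8 h and -0.42 at 24 h. That of crt-1 was 0.37 and -0.34. That of enpl-1 was 0.093 and -0.31. Time and batch cannot be told apart in this design.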

How the results depend on the processing

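The count of members past 2-fold was 0 in each direction at both times under every scaling, pseudocount, filter and assumed coefficient tried, while a 1.5-fold threshold gave 1 lower member at 24 h (atf-6). With a coefficient of 0.1, atf-6 (adjusted p = 0.0252) and pdi-2 (adjusted p = 0.0361) passed edgeR's exact test at 24 h with Benjamini-Hochberg adjustment, but under 2-fold. That test called 153 genes higher and 399 lower at 8 h and 1370 and 1854 at 24 h with the coefficient 0.1, and 7 and 9, and 43 and 8, with 0.4, against 45 and 111, and 881 and 1034, with 0.2. Total-count scaling moved the median at 24 h from -0.32 to -0.51, since it shifted each member by -0.19, and it turned pdi-2 at 8 h from -0.001 to 0.03. Of 60 alternative values of member log2 fold changes, 13 moved by more than counting error, as did 9 of 30 differences between times. Of 336 alternative values of list counts and medians, 37 moved, a count by more than 1.5 times and a median by more than the counting error taken for it. No paired analysis was possible because the columns carry no replicate numbers, and leaving out a replicate was not possible for the same reason. Depth limits atf-6 and pek-1 at 8 h, where the intervals of the log2 fold change ran from -0.06 to 0.42 and from -0.06 to 0.23.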
